A study of Mus musculus with 4 samples.

Results

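The type 2 cytokine cluster is a stretch of mouse chromosome 11 that holds the genes for interleukins 4, 13 and 5, with the genes for interleukin 3 and GM-CSF farther along the same chromosome. The 10 genes described here are those 5 cytokine genes (Il4, Il13, Il5, Csf2 and Il3) and 5 genes that lie between or beside them (Kif3a, Rad50, Slc22a5, Slc22a4 and P4ha2). They were chosen by name and matched to 10 of the 50600 genes in the count files, and the naming rule uses no measured value, although earlier results of these data were known when the set was drawn up. RNA came from primary T-helper 17 (Th17) cells, the CD4 T cells that make interleukin 17, of mouse strain C57BL/6NJ. The 4 libraries form 1 group of biological replicates 1 to 4, with no second condition, genotype or treatment, and the labels refer to a protocol for CD4 T-cell differentiation. The labels give the age as unknown and the sex as not collected, and list 1 donor identifier for all 4 libraries. Separate animals or cultures are not named, so every spread and p-value here measures the spread between these libraries, which may be partly technical. The assay is labelled total RNA-seq, although the linked library protocol is named for polyA+ RNA. The output names in the file headers carry a tag of 16 hr that the labels do not explain.

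In Th2 cells, the helper cells of allergy and worm infection, Il4, Il13 and Il5 are switched on together under the transcription factor GATA3, and a control region inside Rad50 takes part. Interleukin 3 and GM-CSF, the product of Csf2, are growth factors for myeloid cells that activated T cells of several kinds secrete, and GM-CSF from Th17 cells is known for its role in autoimmune inflammation. The genes between the cytokines do unrelated work: Rad50 repairs DNA breaks, Kif3a is a motor protein, Slc22a4 and Slc22a5 carry organic cations and carnitine into cells, and P4ha2 modifies collagen.

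Each library was counted to between 24696730 and 37025016 fragments. Levels are given as TPM, a transcript abundance that divides a gene's count by its exon length and scales each library to a sum of 1000000. A gene is called detected here when it reached 1 TPM in each of the 4 libraries. All 13 markers of Th17 and other T cells were detected, from the interleukin 23 receptor gene Il23r at 2.14 ± 0.154 TPM to the surface receptor gene Cd5 at 1843 ± 46.5 TPM. Values after ± are the SD over the 4 libraries (n = 4) throughout. Il17f and Il17a, the cytokine genes that define Th17 cells, were at 694 ± 73.6 and 20.02 ± 1.02 TPM. Replicates 1 and 2 differed from 3 and 4 in genes of the sex chromosomes: Xist was at 186, 161, 0.687 and 0.721 TPM in replicates 1 to 4, and the Y-linked gene Ddx3y at 0.442, 0.446, 88.6 and 83.2 TPM. High Xist with little Ddx3y is the pattern of female cells, and the reverse is that of male cells. The libraries thus come from more than 1 animal, whatever the donor identifier. Every SD and the test of spread below cross this division.

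The sequences just before the start of transcription are shown for the 5 cytokine genes, because the RNA of these neighbours ranged from none counted to several TPM. They are 120 bases each, 5′ to 3′ on the gene's strand, from RefSeq on build GRCm38.p6, which shares its coordinates with mm10. Capitals mark GGAAA or its complement TTTCC, the core that NFAT factors recognise.
Il4, chr11:53618666-53618785, minus strand: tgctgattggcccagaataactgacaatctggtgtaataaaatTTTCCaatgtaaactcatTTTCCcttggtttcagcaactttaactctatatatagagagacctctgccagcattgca
Il13, chr11:53634703-53634822, minus strand: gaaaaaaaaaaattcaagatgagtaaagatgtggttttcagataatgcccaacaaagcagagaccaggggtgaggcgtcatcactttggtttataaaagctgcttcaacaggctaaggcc
Il5, chr11:53720674-53720793, plus strand: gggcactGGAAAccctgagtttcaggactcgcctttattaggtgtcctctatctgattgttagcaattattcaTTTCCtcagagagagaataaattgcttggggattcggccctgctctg
Csf2, chr11:54249900-54250019, minus strand: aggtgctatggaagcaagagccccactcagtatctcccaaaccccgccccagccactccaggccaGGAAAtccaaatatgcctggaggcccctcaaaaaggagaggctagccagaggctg
Il3, chr11:54267280-54267399, minus strand: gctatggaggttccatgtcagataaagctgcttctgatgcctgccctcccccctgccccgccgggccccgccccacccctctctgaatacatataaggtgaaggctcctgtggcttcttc
The core occurred 2 times in these stretches of Il4 and of Il5, 1 time in that of Csf2, and not in those of Il13 and Il3. Over the full 250 bases before the start, on both strands, it occurred in all 5 cytokine genes, 5 times in Il4, 4 in Il13, 2 each in Il5 and Csf2 and 1 in Il3. In all, 55.2% of 16469 protein-coding promoters of that length held it. The letters GATA, also on both strands, were in 4 of the 5 (3 times in Csf2, 2 in Il3, 1 each in Il13 and Il5, none in Il4) and in 49.4% of all promoters. The AP-1 sequence TGANTCA was in none of the 5 and in 6.14% of all. A match of letters is a description and not a shown binding site.

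The 3 cytokine genes of the type 2 core were close to silent, while Il3 and Csf2 were low but present. Il4 (ENSMUSG00000000869.12, chromosome 11, 53602982 to 53618669 in mm10, minus strand), which encodes the signature Th2 cytokine, had 1, 2, 1 and 1 fragments in replicates 1 to 4. Its counts were under the floor of 3 fragments, the most that a count of 0 allows, which is 0.334 TPM in the shallowest library, in all 4. Summed over the libraries, the 5 fragments of Il4 correspond to 0.105 TPM, with an exact Poisson 95% interval of 0.0341 to 0.245 TPM that covers counting error only. Il5 (ENSMUSG00000036117.2, chromosome 11, 53720794 to 53725106, plus strand), the growth factor of eosinophils, was not counted in any of the 4 libraries, and the floor of 3 fragments stands at 0.266 TPM for it in replicate 2. Il5 cannot be told from absent at this depth, and Il4 was present at the level of single fragments.

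Il13 (ENSMUSG00000020383.1, chromosome 11, 53631324 to 53634702, minus strand), which drives mucus and tissue responses, had 10, 6, 4 and 3 fragments in replicates 1 to 4. These correspond to 0.762, 0.679, 0.343 and 0.228 TPM, a mean of 0.503 ± 0.258. Replicates 1 and 2 were the higher pair and did not overlap replicates 3 and 4, although replicates 2 and 3 differed only by 6 against 4 fragments. This is the same division as in Xist and Ddx3y, whose part in this difference was not tested. The share of all genes with this division was not counted. The mast cell marker Kit, a gene of other cells too, ran from 3.31 and 2.47 to 2.02 and 1.94 TPM in the same order, and its part was not tested either. Counting error alone would give an SD of 0.208 TPM at this depth, against the 0.258 TPM observed. The summed 23 fragments gave 0.492 TPM with an exact Poisson 95% interval of 0.312 to 0.738 TPM.

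Il3 (ENSMUSG00000018914.5, chromosome 11, 54265303 to 54267277, minus strand) was the highest of the 5 cytokine genes. It had 51, 33, 30 and 52 fragments, which correspond to 7.45, 7.16, 4.93 and 7.58 TPM in replicates 1 to 4, a mean of 6.78 ± 1.24. Replicate 3 lay below the other 3 libraries, which were close to each other. Csf2 (ENSMUSG00000018916.5, chromosome 11, 54247271 to 54249667, minus strand) lies 15.6 kb from Il3 and had 11, 15, 12 and 19 fragments. That gave 1.26, 2.56, 1.55 and 2.18 TPM, a mean of 1.89 ± 0.588, with replicate 2 the highest and replicate 1 the lowest. Il3 was above Csf2 in each library, by 5.90, 2.80, 3.18 and 3.48 times, and their ranges did not overlap. The pair did not rise and fall in the same libraries: replicate 1, the lowest for Csf2, was close to the highest for Il3. Together the 5 cytokine genes summed to 9.55, 10.6, 6.91 and 10.1 TPM.

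**Figure D1:**
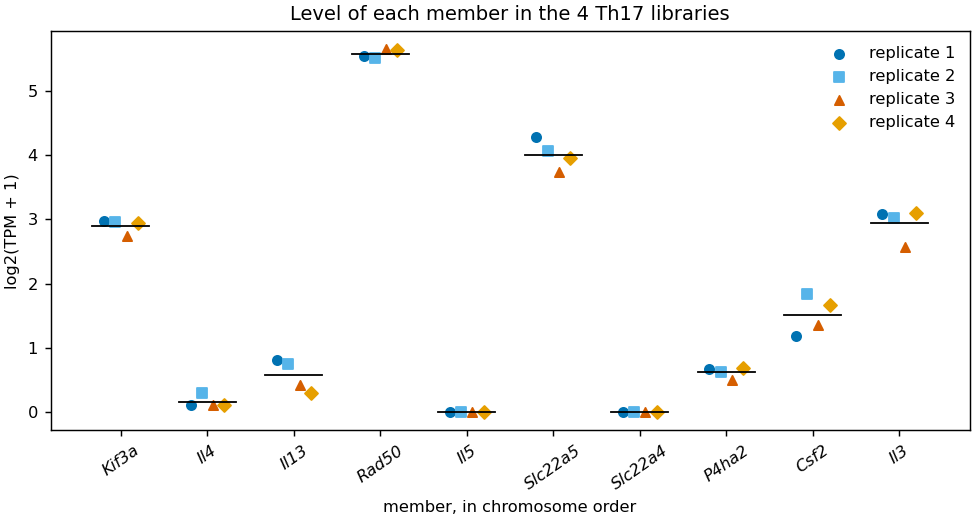
Level of each of the 10 genes in chromosome order (x axis) as log2(TPM + 1) (y axis) in the 4 Th17 libraries, 1 symbol per library, with the mean of the 4 as a line. Rad50 and Slc22a5 lie highest, Kif3a and Il3 at about the same height, and Il5 and Slc22a4 at 0 in each library, while replicate 3 is the lowest library for Kif3a, Slc22a5, P4ha2 and Il3.

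The genes between the cytokines spanned the same range of levels as the cytokines and beyond. Rad50 (ENSMUSG00000020380.16, chromosome 11, 53649519 to 53707319, minus strand) encodes a subunit of the complex that holds broken DNA ends. It was at 45.5, 44.5, 49.1 and 48.5 TPM in replicates 1 to 4, a mean of 46.9 ± 2.23, with replicates 3 and 4 above 1 and 2. Rad50 lies 14.8 kb from Il13 on one side and 13.5 kb from Il5 on the other. It was 59.7 to 213 times as high as Il13 in the same library. The highest of these ratios, in replicate 4, rests on 3 fragments of Il13, so its counting error is large. In the shallowest library Rad50 was at least 167-fold higher than Il5, with Il5 at the floor of 3 fragments.

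Slc22a5 (ENSMUSG00000018900.7, chromosome 11, 53864542 to 53891660, minus strand), the high-affinity carnitine transporter, was at 18.5, 15.6, 12.3 and 14.5 TPM in replicates 1 to 4, a mean of 15.2 ± 2.57. Replicate 1 was highest and replicate 3 lowest. Its paralogue Slc22a4 (ENSMUSG00000020334.6, chromosome 11, 53983123 to 54028090, minus strand), an organic cation and ergothioneine transporter, had no fragment in any library. The floor for Slc22a4 in the shallowest library is 0.160 TPM, so Slc22a5 was at least 97.5-fold higher there. Between the pair lies another paralogue, Slc22a21, at 0.277 ± 0.0693 TPM. Of the 50-base words in the annotated transcripts of Slc22a5, 26.3% also occur in transcripts of other genes, 812 of 3116 of them in Slc22a21, whereas 2.64% of those of Slc22a4 do. Counting that leaves out fragments matching several places would lower Slc22a5 and Slc22a21, so their levels are uncertain. Little of Slc22a4 would be lost that way.

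Kif3a (ENSMUSG00000018395.19, chromosome 11, 53567379 to 53601967, plus strand), the motor subunit of the kinesin that builds cilia and moves cargo along microtubules, was at 6.84, 6.73, 5.71 and 6.67 TPM, a mean of 6.49 ± 0.524. Replicate 3 was again the lowest, and the other 3 libraries lay close together. P4ha2 (ENSMUSG00000018906.14, chromosome 11, 54100095 to 54131665, plus strand), a catalytic subunit of collagen prolyl hydroxylase, had 40, 25, 25 and 41 fragments, or 0.589, 0.547, 0.414 and 0.602 TPM, a mean of 0.538 ± 0.0858. P4ha2 thus had fragments in each library but stayed below 1 TPM, and its range overlapped that of Il13.

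In order of mean TPM the genes were Rad50, Slc22a5, Il3, Kif3a, Csf2, P4ha2, Il13 and Il4, followed by Il5 and Slc22a4 at 0. Il3 and Kif3a overlapped in range, with Il3 the higher in 3 of 4 libraries, and so did P4ha2 and Il13, with P4ha2 the higher in 2 of 4. The other neighbours in this order with fragments did not overlap. This order depends in part on the length used. With the longest transcript as length, P4ha2 at 0.868 ± 0.138 TPM was above Il13 at 0.398 ± 0.204 TPM in 4 of 4 libraries with no overlap. Il4, at 0.183 ± 0.116 TPM, then overlapped Il13, and the mean of Kif3a, 5.82 TPM, lay above that of Il3, 5.36 TPM. In all, 5 of the 10 genes were detected (Rad50, Slc22a5, Il3, Kif3a and Csf2), against 44.8% of the 21764 protein-coding genes. Of the 10, 2 had no fragment in any library, against 36.8% of protein-coding genes. Both shares are of the same order as the background. With the longest transcript as length, Csf2 no longer reached 1 TPM in each library, which left 4 genes.

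Along the chromosome, Rad50 and Slc22a5 each stood next to genes at or near 0. The 9 pairs compared were consecutive by start within the set, with other genes skipped, such as Irf1 between Il5 and Slc22a5. Il5 and Slc22a4 had no fragment, so any fragment of the other gene fixed the direction in their pairs. The difference in log2(TPM + 1) kept its direction in 4 of 4 libraries in 9 of 9 pairs. The largest was Rad50 over Il5, 5.58 ± 0.07, followed by Rad50 over Il13, where Il13 minus Rad50 was -5.01 ± 0.31. Slc22a5 exceeded Slc22a4 by 4.01 ± 0.23 and Kif3a exceeded Il4, 1.01 kb away, by 2.75 ± 0.12. Csf2 minus Il3 was -1.44 ± 0.33, P4ha2 minus Csf2 was -0.89 ± 0.29 and Il4 minus Il13 was -0.42 ± 0.22. These sizes, and the order below the largest, depend on the 1 added to each TPM. With 0.1 added instead, Rad50 over Il5 was 8.88, Slc22a5 over Slc22a4 was 7.25 and Il13 minus Rad50 was -6.39. Il4 minus Il13 was then -1.44. The exact two-sided sign-flip p was 0.13 for each pair, before and after Benjamini-Hochberg adjustment over the 9. No smaller p can come from 4 libraries, so no pair could pass 0.05. Without division by length, P4ha2 minus Csf2 turned to 0.46 on log2(CPM + 1), since the exons of P4ha2 sum to 6239 bases and those of Csf2 to 800.

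**Figure D2:**
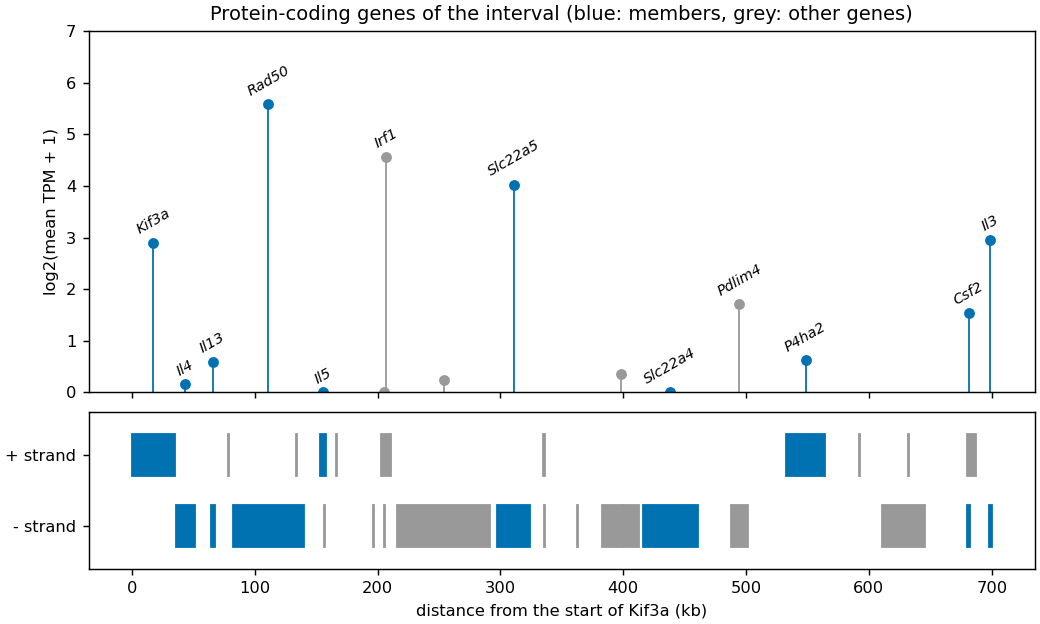
Upper panel: log2(mean TPM + 1) over the 4 libraries (y axis) of each protein-coding gene against the distance of its middle from the start of Kif3a in kb (x axis), with the 10 genes in blue and other genes in grey. Lower panel: the span of each annotated gene by strand, where Rad50 stands at 46.9 TPM between Il13 at 0.503 and Il5 at 0.

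The span from Kif3a to Il3 covers 699.9 kb and overlaps 28 genes of the count files, the 10 and 18 others. Of the 18, 2 were detected and 11 had no fragment, but most of the 18 are pseudogenes or noncoding genes. Only 5 of them are protein-coding, of which 2 were detected and 1 had no fragment. Over all protein-coding genes those shares were 44.8% and 36.8%. Irf1, which encodes an interferon-regulated transcription factor and lies between Il5 and Slc22a5, was at 22.6 ± 1.62 TPM. Pdlim4, a cytoskeletal adaptor gene between Slc22a4 and P4ha2, was at 2.26 ± 0.349 TPM. Antisense genes overlap exons of Il5 by 417 bases and of Csf2 by 96 bases and had no fragment, and the counting used strand.

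Sequence composition near the start separated the cytokine genes from their neighbours, but did not order the RNA levels. In the 250 bases before the start, the ratio of observed to expected CpG dinucleotides was 0 for Il4, 0.106 for Csf2, 0.235 for Il5, 0.259 for Il13 and 0.331 for Il3. It was 0.694 for P4ha2, 0.696 for Kif3a, 0.822 for Slc22a4 and 0.907 for Slc22a5, and Rad50 is not in the promoter table. The bases used for P4ha2 lie inside the span of the counted gene and not before it. The median over protein-coding promoters was 0.561. Among those with a ratio of 0.6 or more, 75.6% of genes were detected, against 23.2% of the rest. Slc22a4 and P4ha2, on the CpG-rich side, were at 0 and 0.538 TPM, and Il3, on the poor side, at 6.78 TPM. The paralogues Slc22a5 and Slc22a4 are shown because one was at 15.2 TPM and the other at 0, with each CpG in capitals and the same source and length as above.
Slc22a5, chr11:53891704-53891823, minus strand: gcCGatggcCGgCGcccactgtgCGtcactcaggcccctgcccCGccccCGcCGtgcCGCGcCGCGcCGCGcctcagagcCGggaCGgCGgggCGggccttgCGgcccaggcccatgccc
Slc22a4, chr11:54028105-54028224, minus strand: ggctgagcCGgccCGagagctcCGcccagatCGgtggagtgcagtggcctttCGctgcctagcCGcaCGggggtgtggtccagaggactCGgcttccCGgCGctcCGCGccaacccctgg
These stretches held 18 and 12 CpG dinucleotides, against 0 to 3 in those of the 5 cytokine genes.

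No gene of the cluster was called in a test of the spread between replicates across all genes. The test asks whether a gene's spread between the 4 libraries exceeds that of genes of its abundance (edgeR quasi-likelihood fit, Benjamini-Hochberg adjusted p under 0.05). It called 36 of 11847 genes, 0.304%, and 674 had an unadjusted p under 0.05. The filter on low counts kept 6 of the 10 genes (Rad50, Slc22a5, Kif3a, Il3, P4ha2 and Csf2), so Il13, Il4, Il5 and Slc22a4 did not enter. Without the filter, Il13 and Il4 had adjusted p of 0.93 and 0.98. Of the 6, edgeR and limma called 0, and 1 of 6 had an unadjusted p under 0.05 in edgeR. That gene was Slc22a5, with an unadjusted p of 0.00402 and an adjusted p of 0.39, between 0.12 and 0.95 over the alternatives tried. For the other 5 genes the adjusted p was 0.99.

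The counts themselves limit the precision for most of these genes. The SD over the mean was 16.9% for Slc22a5, where counting error alone gives 4.75%, and 4.75% for Rad50, where counting error gives 2.05%. For Kif3a it was 8.07% beside 6.74%, for Il3 18.3% beside 15.7%, for Csf2 31.2% beside 26.8% and for P4ha2 15.9% beside 17.7%. Spread beyond counting error is thus visible mainly in Slc22a5 and Rad50, the pair with the most fragments. For Rad50 it was not unusual: the common spread beyond counting error that edgeR fitted over all genes tested was 5.43%, above its 4.75%. Slc22a5 and Rad50 had opposite ends in replicate 3, the lowest library for Slc22a5 and the highest for Rad50. Slc22a5 was also higher in both of replicates 1 and 2 than in 3 and 4, and Rad50 was lower. That is the same division as in Xist and Ddx3y, whose part in it was not tested. Kif3a was also higher in replicates 1 and 2, at 6.84 and 6.73 TPM, than in 3 and 4, at 5.71 and 6.67 TPM. The share of all genes with this division was not counted, so it is not shown to be particular to these genes. Rad50 was 2.46, 2.85, 3.98 and 3.35 times as high as Slc22a5 in replicates 1 to 4. Replicate 3 was the lowest library for 4 of the 8 genes with fragments (Slc22a5, Kif3a, Il3 and P4ha2). It was the lowest for 21.9% of the 11170 detected genes, a set that leaves out P4ha2, Il13 and Il4.

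**Figure D3:**
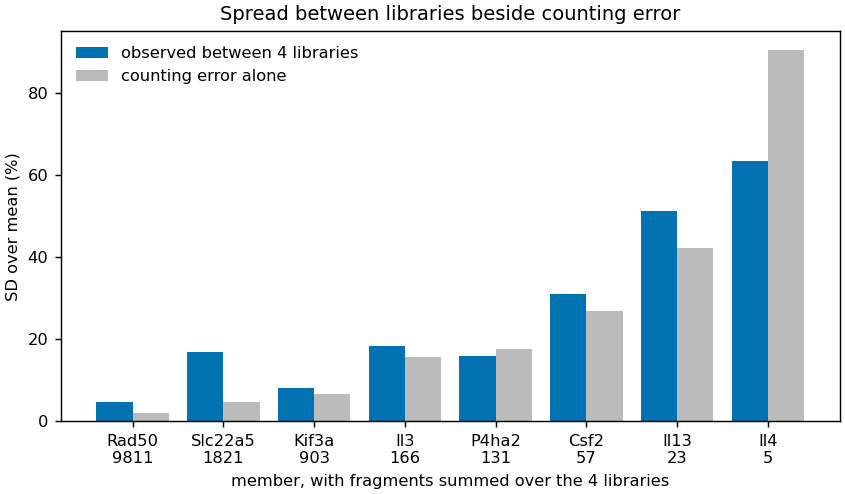
SD over the mean, in percent (y axis), for the 8 genes with fragments, ordered by their fragments summed over the 4 libraries (x axis), as observed between libraries (blue) and as counting error alone would give (grey). Slc22a5 stands out at 16.9% beside 4.75%, and the bars of Il3, Csf2 and Il13 are close to their counting error.

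Against 36 other cytokine genes, the cluster genes lay in the middle and at the bottom. Among the 41 together, Il3 ranked 18th, Csf2 22nd, Il13 25th and Il4 28th by mean TPM, and Il5 was among those with no fragment. The highest were Il2, the T-cell growth factor, at 1615 ± 114 TPM, Lta, which encodes lymphotoxin alpha, at 1530 ± 82.0 TPM, and Tnf at 768 ± 15.7 TPM, and the lowest included Il27 with no fragment. Likeness was taken within these 36, as the root mean square difference in log2(TPM + 1) over the 4 libraries. By it the genes most like Il3 were Il10, at 7.17 ± 2.29 TPM and 0.28 away, and Clcf1, at 0.57. Those most like Csf2 were Il22, a Th17 cytokine, at 2.08 ± 0.464 TPM and 0.31 away, and Il24, at 0.52. Il13 was nearest to Csf1, at 0.272 ± 0.0844 TPM and 0.28 away, and Tgfb3, at 0.39. This measure is set mostly by the level.

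**Figure D4:**
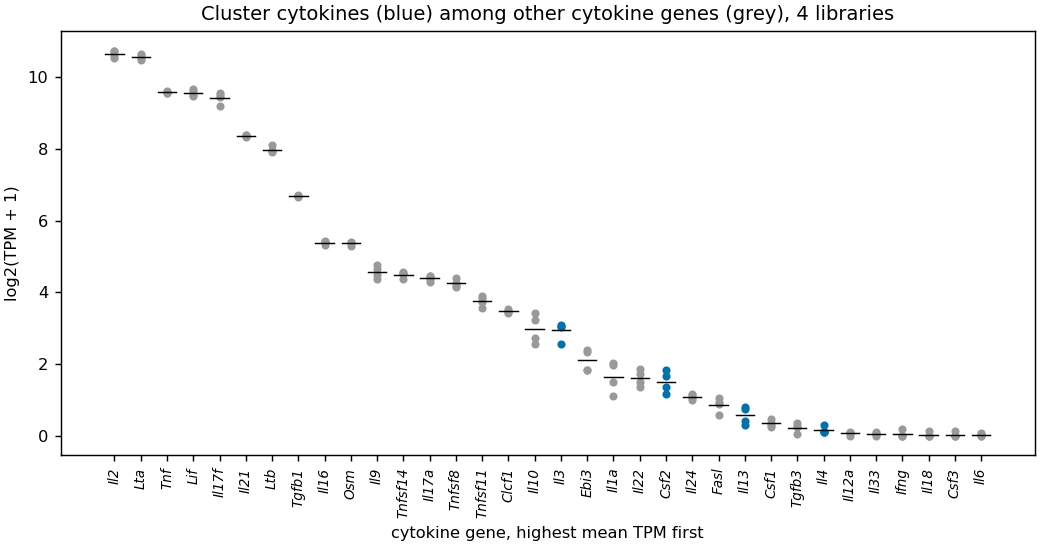
Cytokine genes with any fragment, highest mean TPM first (x axis), as log2(TPM + 1) in each of the 4 libraries (points, y axis) with the mean as a line, the cluster cytokines in blue and others in grey. Il3 and Csf2 lie in the middle of the order, far below Il2 at 1615 TPM, and Il13 and Il4 near the bottom.

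As counted, the receptors for the cluster cytokines were present for interleukin 4 and incomplete for the others. Of 9 receptor genes, 4 were detected. Il2rg, the shared gamma chain, was at 290.2 ± 5.04 TPM and Il4ra, the interleukin 4 receptor chain, at 166 ± 8.25 TPM. The ligand-binding chains Csf2ra and Il3ra were at 3.01 ± 0.866 and 2.59 ± 0.516 TPM. Csf2rb, the beta chain through which GM-CSF, interleukin 3 and interleukin 5 signal, had no fragment (floor 0.0859 TPM), and its relative Csf2rb2 had 2 over the 4 libraries. By the default of the counting program, fragments matching both genes would be left out, and the sequence they share was not measured. Il5ra and Il13ra2 had none either, and Il13ra1 had 10.

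Regulators known from the type 2 cytokine genes were mostly abundant, while Gata3 was low. Of 19 activators, 17 were detected, with a median of 177 TPM, where 44.8% of protein-coding genes met the same rule. Irf4, Junb and Batf, transcription factors that Th17 and Th2 cells share, led at 1647 ± 43.8, 631 ± 35.1 and 594 ± 7.16 TPM, and Stat6, which relays the interleukin 4 signal, was at 209.7 ± 2.04 TPM. Gata3 itself was at 1.41, 1.51, 1.72 and 1.54 TPM in replicates 1 to 4, and Bhlhe41 was lowest with 2 fragments in all. Of 14 repressors, 12 were detected, with a median of 36.2 TPM, led by the chromatin genes Mta2 at 318 ± 6.08, Dnmt1 at 174 ± 10.2 and Mbd2 at 85.0 ± 1.31 TPM, with Hlx at 2 fragments in all. Of 19 regulators of Csf2 and Il3, 19 were detected, with a median of 83.7 TPM. Among the highest were the NF-kB subunit gene Nfkb1 at 276 ± 9.07 and Stat5a at 257 ± 5.64 TPM, and the lowest was Fos at 5.98 ± 1.11 TPM. Bhlhe40, a factor known to promote GM-CSF in T cells, was at 153 ± 13.2 TPM.

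The genes beside the cytokines were set against the partners their products work with. Mre11a and Nbn, which form the DNA break complex with Rad50, were at 44.8 ± 0.915 and 73.4 ± 3.19 TPM, and the kinase gene Atm at 28.2 ± 1.25 TPM. The range of Mre11a, 43.7 to 45.9 TPM, overlapped that of Rad50. Of the kinesin-2 subunits, Kifap3, the adaptor, was at 6.60 ± 0.0508 TPM, within the range of Kif3a, while Kif3b was at 82.8 ± 4.16, Kif3c at 2.81 ± 0.209 and Kif17 at 0.0414 ± 0.0568 TPM. P4ha2 lay between the other catalytic subunits. P4ha1 was at 63.0 ± 2.18 TPM and P4ha3 had 1 fragment, beside the shared beta subunit gene P4hb at 762 ± 12.5 TPM and the lysyl hydroxylase gene Plod3 at 48.2 ± 1.51 TPM. Of 13 matched genes of carnitine and cation transport and use, 5 were detected, led by the aldehyde dehydrogenase gene Aldh9a1 at 118 to 123 TPM, the mitochondrial carnitine carrier Slc25a20 at 20.4 ± 0.375 and Cpt2 at 10.8 ± 0.766 TPM. Bbox1, the last enzyme of carnitine synthesis, had no fragment. The sum over these 13 genes lay between 165 and 168 TPM in the 4 libraries, most of it from Aldh9a1. Such a sum hides the spread of the single genes, so it is not a like measure beside the 12.3 to 18.5 TPM of Slc22a5.

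Most markers of other cells that make type 2 cytokines were at or near 0, except Kit and Trdc, whose means were above that of Csf2. Of 11 mast cell and basophil genes, 8 had no fragment and 1, the stem cell factor receptor Kit, reached 1 TPM in every library at 2.43 ± 0.627 TPM. Their sum lay between 2.07 and 3.44 TPM. None of 7 eosinophil genes and none of 7 genes of type 2 innate lymphoid cells reached 1 TPM in every library, with 5 and 2 at no fragment and sums of 0.0842 to 0.195 and 0.208 to 0.634 TPM. In the list of natural killer T and gamma delta T cells, Trdc reached 1 TPM, at 5.17 ± 0.584, and the sum lay between 5.09 and 6.20 TPM. Myeloid and stromal lists summed to 3.98 to 6.38 and 4.41 to 6.01 TPM, with Cd68 at 5.24 ± 1.02 and Pecam1 at 3.24 ± 0.158 TPM the highest. In bulk RNA, fewer cells that express a gene and less RNA per cell cannot be told apart, so the few fragments of Il13, Il4 and Csf2 may come from few or many cells.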

How the data were processed

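RNA was measured in 4 libraries of 1 group. Each deposited file gives raw counts of fragments for every gene, made by the authors with featureCounts 1.4.6-p4 on paired-end alignments to mm10 with GENCODE vM13, per the file headers, with both ends aligned, reverse strand and exons summed per gene. The aligner's version was not stated. The headers show no option for fragments matching several places or genes, and the program's default leaves both out.

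From these counts, TPM was computed here over the deposited exon length of all isoforms together. Symbols came from GENCODE M21 (mm10; 50376 of 50600 matched, version ignored). Spread between replicates was tested with edgeR 4.0.16 (TMM, filterByExpr, glmQLFit with an intercept only, robust prior) in R 4.3.3, upper tail of F, and tested on simulated data. Alternatives were DESeq2 1.42.0 size factors, limma 3.58.1, other filters, priors, lengths, scalings, thresholds, a pseudocount of 0.1 in place of 1, and each replicate left out. Differences between neighbours used an exact sign-flip test. Python 3.11.15 served for the rest.

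The genes and the 17 lists were chosen with earlier results of these data known. The text names all 10 genes, detected genes of the interval, the 3 highest and the lowest of each list of regulators, receptors, cytokines and partners, genes used beside a result, and the detected genes of the lists of other cells. Of the list symbols, Tmlhe found no match, and 1 gene that the rule would name is not reported here. Promoters of 9 of the 10 matched RefSeq by symbol (250 bases before the start, the most upstream RefSeq start per gene). For P4ha2 that start, 54100924, lies inside the counted gene, which begins at 54100095. Counts of 3 fragments were taken as a floor, and floors and intervals cover counting error only.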

Additional observations from a re-analysis of the deposited data

Results flagged for a closer look

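In a group of 4 libraries, a value was singled out when its gap to the nearest other library exceeded Dixon's 95% limit as a share of the whole range, which chance passes in about 1 group in 20. Among genes at 1 TPM or more in every library, 4.70% passed it, and in 0.412% replicate 3 was the low library. Kif3a passed it with 5.71 TPM in replicate 3, where the other libraries lay between 6.67 and 6.84 TPM. Il3 passed it with 4.93 TPM in replicate 3, where the others lay between 7.16 and 7.58 TPM. Il4 passed it with 0.222 TPM in replicate 2, which is 2 fragments against 1 in each of the other libraries. Without replicate 3, the mean of Kif3a was 6.75 TPM and that of Il3 was 7.39 TPM. The SD over the mean was close to counting error in these genes, 8.07% beside 6.74% for Kif3a and 18.3% beside 15.7% for Il3. Neither was called in the edgeR test of spread (adjusted p 0.99 for each).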

How the results depend on the processing

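The number of genes detected among the 10 was 5 without mitochondrial and ribosomal RNA genes in the scaling, at 0.5 TPM and with each replicate left out. It was 4, without Csf2, with the longest transcript as length and 2 (Rad50 and Slc22a5) at a threshold of 10 TPM. All 9 differences between neighbours kept their direction under the other scalings, lengths and pseudocount and without each replicate, except P4ha2 minus Csf2, which was 0.46 in CPM, without length. Pairs with Il5 or Slc22a4, which had no fragment in any library, could not change direction under any of these settings. The sizes of the differences, and the order below the largest, did change with the pseudocount. No gene of the cluster was called variable under any alternative, although the genes called in all were 94 without a filter, 17 without the robust prior and 15 without replicate 4, against 36. The cause of these changes was not tested. With the longest transcript as length, P4ha2 was at 0.868, Il4 at 0.183 and Rad50 at 38.7 TPM. Leaving out a replicate moved no mean by more than 1.46 times, the largest being Il4. Depth limits Il4, Il5, Il13 and Slc22a4, which had 0 to 10 fragments per library. No paired analysis was possible because there is 1 group.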

Other observations

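Outside the cluster, 5 of 15 genes tied to Th2 effector function were detected, with a median of 0.148 TPM over the list. The chemokine receptor genes Ccr8 and Ccr4 were at 392 ± 25.7 and 30.7 ± 2.04 TPM, and the cytokine gene Il9 was at 24.0, 26.2, 19.7 and 21.4 TPM in replicates 1 to 4. Ptgdr2, which encodes the prostaglandin D2 receptor of Th2 cells, and the cytokine gene Il31 had no fragment.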
